A study of Mus musculus with 30 samples.

Results

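The 10 immediate early genes described here are Fos, Fosb, Jun, Junb, Egr1, Nr4a1, Dusp1, Btg2, Ier2 and Atf3, 10 of 21887 protein-coding genes in the RefSeq table of the mouse build GRCm38.p6, which is the mm10 assembly. They were taken by name, with no threshold on a measured value, but with earlier results of these data known. Each gene was read in a window of its annotated span plus 1 kb on each side. The material was N1E115, a mouse neuroblastoma line labelled NOS1+ and of neuroblast type, kept for 3 days at 4% O2 (hypoxia in the labels) or 20% O2 (normoxia). Chromatin immunoprecipitation with sequencing used 6 antibodies, each on 2 libraries per O2 level, which gives 24 libraries beside 6 inputs that are not analysed here. The antibodies recognise acetylated lysine 9 of histone H3 (H3K9ac), CTCF, which binds insulators, RAD21, a subunit of cohesin, and RNA polymerase II in 3 ways: POLR2, the serine 5 phosphorylated form of its carboxy-terminal repeats (POLR2S5) and the serine 2 phosphorylated form (POLR2S2). All groups share 1 cell line. Since the labels do not name separate cultures for replicates 1 and 2, each p-value reflects library-to-library spread, possibly technical only.

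Immediate early genes are switched on within minutes of growth factors, calcium entry or stress, without new protein synthesis, and most encode short-lived transcription factors or feedback inhibitors. Serum response factor with its ternary complex partners, and CREB at the cyclic AMP response element, are their classical activators. Polymerase phosphorylated at serine 5 accumulates near start sites, where many of these genes hold a paused polymerase, and serine 2 phosphorylation marks polymerase released into productive elongation. H3K9ac marks active promoters, while CTCF and cohesin occupy insulator sites and loop anchors.

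The members lie at chr12:85473890-85477274 (Fos), chr7:19302696-19310118 (Fosb), chr4:95049036-95052222 (Jun), chr8:84976909-84978748 (Junb), chr18:34861207-34864956 (Egr1), chr15:101253902-101274795 (Nr4a1), chr17:26505591-26508472 (Dusp1), chr1:134074865-134079155 (Btg2), chr8:84661331-84662852 (Ier2) and chr1:191170296-191183333 (Atf3). They are short genes, from 1522 bp for Ier2 to 20894 bp for Nr4a1. Their median length was 3.57 kb, against 17.2 kb over all protein-coding genes.

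Replicates 1 and 2 were sequenced on different flow cells and are called rounds 1 and 2. Islands are the broad enriched stretches that SICER lists with their read counts, and peaks are the narrower stretches of MACS2. The reads in all islands of a polymerase library summed to between 2057835 and 10173255 for POLR2, between 5926664 and 12374730 for POLR2S5 and between 4874802 and 16597869 for POLR2S2. The lowest sum of each antibody belonged to 20% O2 replicate 1. Such a sum is not the depth of a library, and no depth is used here. An H3K9ac peak, which 60.2% to 62.9% of all genes had in a library, was listed at 13 or 14 of 14 neuroblast and sympathetic markers. It was also listed at 3 of 6 fibroblast, 1 of 6 macrophage and microglia, 2 of 4 endothelial, 1 of 3 astrocyte and 2 or 3 of 5 Schwann cell and oligodendrocyte markers. Among those without a peak in any library were the leukocyte genes Ptprc and Csf1r, the endothelial genes Cdh5 and Kdr, and Dcn and Lum, the only fibroblast markers never listed.

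Promoters of 8 members were matched by symbol in the RefSeq promoter table of the same build. No entry was matched for Egr1 and Ier2, so their promoters were not searched. The window searched for motifs was the 250 bp before the start site. The core TGACG of the cyclic AMP response element, searched on both strands and contained in the full element, stood in 7 of these 8 windows, and in 20.3% of 17492 promoters. The full palindrome TGACGTCA stood in Dusp1 and Btg2, and in 2.01% of promoters. The 170 bases before the start sites of 5 members are printed 5′ to 3′ on the gene's strand, with TGACG, TGACGTCA and the sense-strand TATA box TATAA in capitals; they show where these letters lie and how Jun, which has none of them, differs.
Fos, chr12:85473720-85473889, plus strand: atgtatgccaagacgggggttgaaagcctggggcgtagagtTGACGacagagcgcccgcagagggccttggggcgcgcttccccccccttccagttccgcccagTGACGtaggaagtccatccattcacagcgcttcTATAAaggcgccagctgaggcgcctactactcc
Jun, chr4:95052223-95052392, minus strand: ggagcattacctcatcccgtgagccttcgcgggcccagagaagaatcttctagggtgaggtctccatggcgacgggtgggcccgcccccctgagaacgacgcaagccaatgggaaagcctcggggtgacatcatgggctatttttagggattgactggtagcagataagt
Junb, chr8:84978749-84978918, minus strand: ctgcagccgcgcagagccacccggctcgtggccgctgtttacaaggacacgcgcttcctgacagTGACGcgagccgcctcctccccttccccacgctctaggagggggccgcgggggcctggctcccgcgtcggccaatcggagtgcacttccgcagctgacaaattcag
Dusp1, chr17:26508473-26508642, minus strand: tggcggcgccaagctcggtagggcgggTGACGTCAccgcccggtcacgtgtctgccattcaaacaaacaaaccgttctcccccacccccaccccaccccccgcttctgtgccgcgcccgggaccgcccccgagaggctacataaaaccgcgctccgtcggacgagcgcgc
Btg2, chr1:134079156-134079325, minus strand: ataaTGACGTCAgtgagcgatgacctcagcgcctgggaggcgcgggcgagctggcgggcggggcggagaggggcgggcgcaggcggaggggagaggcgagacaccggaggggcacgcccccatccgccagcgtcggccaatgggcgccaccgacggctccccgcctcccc

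Positions count back from -1, the last base before the start site. In Fos the TGACG cores lie at -129 to -125 and -66 to -62 and TATAA at -33 to -29; TATAA stood in 15.9% of promoters. The palindrome lies at -143 to -136 in Dusp1 and at -166 to -159 in Btg2. Junb, Fosb, Nr4a1 and Atf3 each carry at least 1 TGACG core on one strand or the other. The serum response element core, known as the CArG box, was in none of the 8 windows and in 1.39% of promoters. The AP-1 site TGANTCA was likewise in none, against 6.22%. Sites more than 250 bp before the start, or after it, were not searched. The GC box GGGCGG was in 7 of 8 windows (42.7% of promoters). The hypoxia response cores ACGTG and GCGTG, both searched on both strands, were in 1 member (Dusp1, where ACGTG lies inside the E-box CACGTG) and in 5 members, against 17.6% and 33.6% of promoters.

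All 10 members were marked by polymerase, and the forms differed in how fully they were listed. POLR2S5 islands were listed at 10, 10, 9 and 10 members in 4% O2 replicates 1 and 2 and 20% O2 replicates 1 and 2, where 60.5%, 61.1%, 55.2% and 62.6% of all genes had one. POLR2 islands were listed at 10, 9, 8 and 10 members, against 58.1%, 60.3%, 43.6% and 61.5% of genes. POLR2S2 islands were listed at all 10 members in both 4% O2 libraries, then at 4 and 8 members in the 20% O2 libraries, against 55%, 57.3%, 46.5% and 55% of genes.

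**Figure D1:**
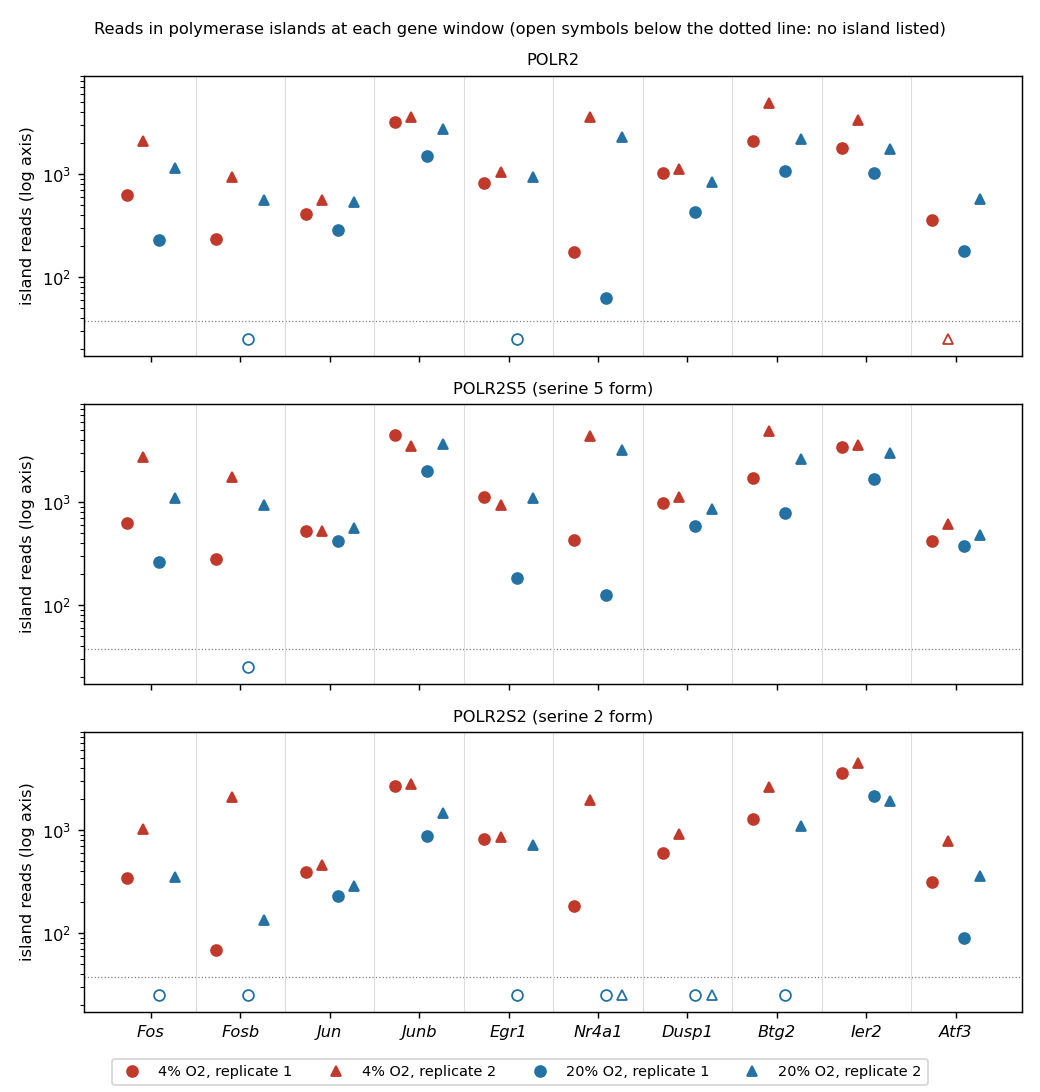
Reads in the islands that overlap each gene window (log axis), for POLR2 (top), POLR2S5 (middle) and POLR2S2 (bottom); circles are replicate 1 and triangles replicate 2, red 4% O2 and blue 20% O2, and open symbols mark libraries with no island listed. The open symbols gather in the bottom panel, where 6 members have none in 20% O2 replicate 1 and Nr4a1 and Dusp1 have none in either 20% O2 library.

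Fos, the partner of Jun proteins in the AP-1 transcription factor, had 621 and 2738 POLR2S5 island reads in 4% O2 replicates 1 and 2, against 263 and 1085 at 20% O2. Its POLR2S2 islands held 339 and 1015 reads at 4% O2 and 348 in 20% O2 replicate 2, with none listed in 20% O2 replicate 1. In each round Fos was higher at 4% O2 in POLR2S5, while round 1 at 4% O2 lay below round 2 at 20% O2, so the groups overlap. In 20% O2 replicate 1 the POLR2S5 and POLR2 islands of Fos both ended 0.91 kb past its first base, inside the gene. The other 3 POLR2S5 islands ran 1.33 to 3.73 kb past the gene's end. That of 4% O2 replicate 2, with the 2738 reads, was 41.0 kb long and began 33.89 kb before the gene.

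Fosb, a second Fos-family subunit, had 278 and 1770 POLR2S5 reads at 4% O2, none listed in 20% O2 replicate 1 and 931 reads in replicate 2. Its POLR2S2 islands held 69 and 2094 reads at 4% O2 and 134 in 20% O2 replicate 2. The high library, 4% O2 replicate 2, had 1 island of 31.2 kb there, with 67.1 reads per kb, and 20% O2 replicate 2 had 1 of 4.2 kb with 31.9 reads per kb. The reads of a window thus move with how far an island reaches, since whole islands were counted.

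Jun, the founding Jun-family subunit, had the narrowest range of POLR2S5 reads, with 523 and 527 at 4% O2 against 417 and 559 at 20% O2. In POLR2S2 it had 388 and 456 reads against 228 and 288. After scaling to library totals Jun was lower at 4% O2 in both rounds in all 3 forms, with round values of -0.58 and -0.31 (log2) for POLR2, -0.55 and -0.11 for POLR2S5 and -0.41 and -0.31 for POLR2S2. Reads per kb of island gave round 1 values above 0, at 0.37, 0.4 and 0.65, but these were not scaled to library totals. They cannot be set against the scaled values, since POLR2 island reads in round 1 summed to 5933802 at 4% O2 and 2057835 at 20% O2. In the edgeR fits per kb of island the O2 ratios of Jun were -0.08 ± 0.32, -0.23 ± 0.28 and 0.12 ± 0.21 (SE). The sign thus changed with island length in POLR2S2 only.

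Junb, the Jun-family member that dampens Jun, had 4516 and 3488 POLR2S5 reads at 4% O2 against 2005 and 3678 at 20% O2. Its POLR2S2 reads were 2679 and 2825 against 870 and 1457. The islands over Junb were 15.6 to 35.2 kb long in these 8 libraries and took in neighbouring genes such as Rnaseh2a and Prdx2, so the reads are not those of Junb alone.

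Among the other transcription factors, Egr1, a zinc finger activator, had 1123 and 940 POLR2S5 reads at 4% O2 against 182 and 1102 at 20% O2. In POLR2S2 it had 822 and 865 reads at 4% O2 and 711 in 20% O2 replicate 2, with no island in 20% O2 replicate 1. In that library the POLR2S5 island of Egr1 was 3.6 kb long, against 12.4 to 15.6 kb in the other 3. Atf3, the stress-induced ATF/CREB family repressor, had 420 and 615 POLR2S5 reads against 373 and 475, and 315 and 778 POLR2S2 reads against 90 and 358. The single POLR2S2 island of Atf3 in 20% O2 replicate 1 began 13.13 kb past its first base, beyond the gene, and lay in the window only through the 1 kb flank.

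Nr4a1, an orphan nuclear receptor also known as Nur77, had 428 and 4359 POLR2S5 reads at 4% O2 against 126 and 3237 at 20% O2. The round 2 POLR2S5 islands took in the neighbour Grasp, and the rounds differ more than the O2 levels. Its POLR2S2 islands held 181 and 1945 reads at 4% O2, and none was listed in either 20% O2 library. In 4% O2 replicate 1 that island covered 18.1 to 24.3 kb from the first base, at the gene's far end. In 20% O2 replicate 2 the nearest POLR2S2 islands lay 2.9 kb before and 7.2 kb after the gene.

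Dusp1, the phosphatase that switches off MAP kinases as a feedback inhibitor, had 986 and 1118 POLR2S5 reads at 4% O2 against 588 and 849 at 20% O2. All 4 of its POLR2S5 islands began upstream and ran 3.19 to 4.39 kb past the gene's end. Its POLR2S2 islands held 604 and 915 reads at 4% O2, and none was listed at 20% O2, where the nearest islands were 52.2 and 52.3 kb away in replicate 1 and 52.4 and 50.5 kb away in replicate 2. The smallest island of those lists held 14 and 30 reads.

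Btg2, an antiproliferative cofactor of mRNA decay, had 1716 and 4883 POLR2S5 reads at 4% O2 against 776 and 2604 at 20% O2. The POLR2S5 island of 4% O2 replicate 2 was 51.6 kb long and began 25.64 kb before the gene. Those of the other libraries were 11.4 to 31.2 kb long. The POLR2S2 islands of Btg2 held 1282 and 2634 reads at 4% O2 and 1104 in 20% O2 replicate 2. None was listed in 20% O2 replicate 1. Ier2, a nuclear protein of the serum response, had 3430 and 3591 POLR2S5 reads against 1656 and 3004, and 3566 and 4485 POLR2S2 reads against 2154 and 1900. Its islands, 19.2 to 61.2 kb long in these 8 libraries, also took in neighbouring genes, Nacc1 in each of them.

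**Figure D2:**
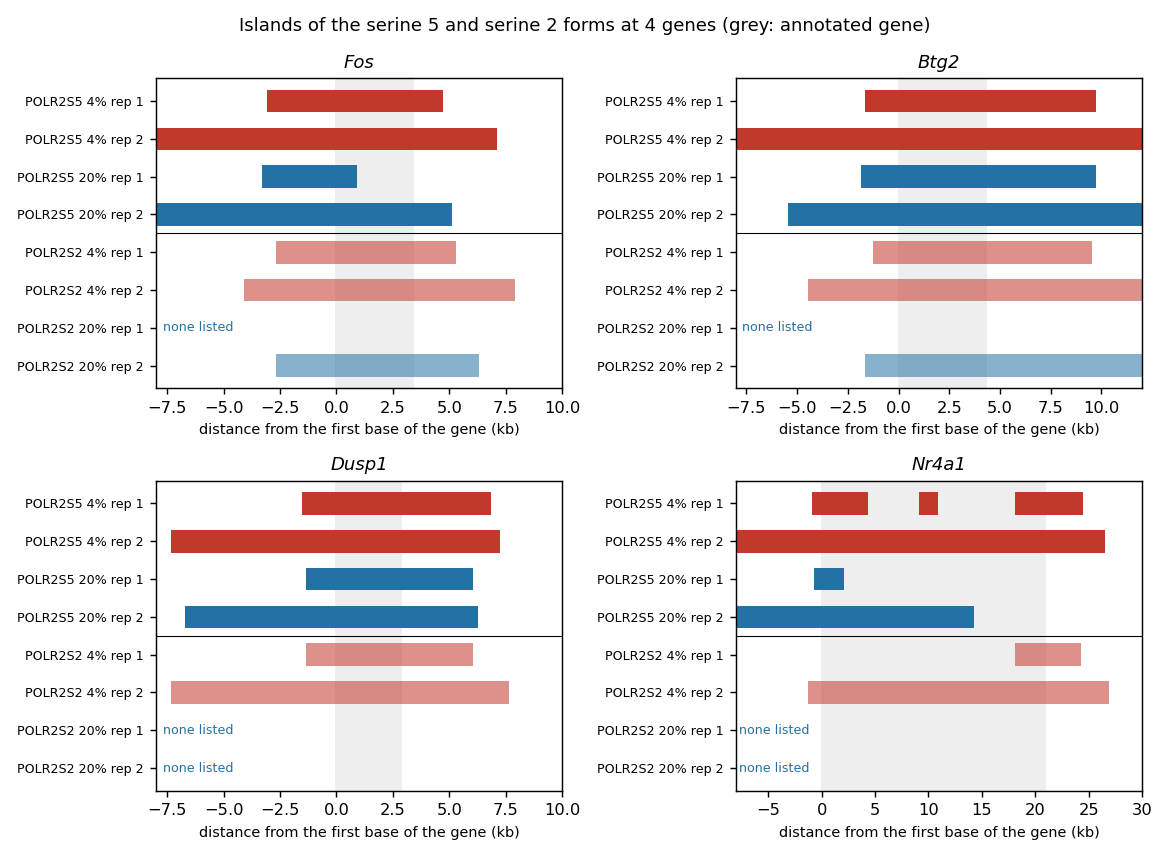
Islands of POLR2S5 (upper rows) and POLR2S2 (lower rows, paler) at Fos, Btg2, Dusp1 and Nr4a1, as distance in kb from the gene's first base, with bars clipped at the panel edges, red for 4% O2 and blue for 20% O2; grey is the annotated gene. POLR2S5 is listed in all 4 libraries at each of these genes, and POLR2S2 is not listed in 20% O2 replicate 1 at any of them, nor in replicate 2 at Dusp1 and Nr4a1.

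Nr4a1 and Dusp1 were thus 2 of 10 members with a POLR2S2 island in both 4% O2 libraries and in neither 20% O2 library. Of 13348 genes with a POLR2S2 island in at least 1 library, 326 had this pattern (2.44%), and 0 members against 0.292% of genes had the reverse. A further 4 members (Fos, Fosb, Egr1 and Btg2) had an island in every POLR2S2 library but 20% O2 replicate 1, as did 12.5% of genes; Jun, Junb, Ier2 and Atf3 had one in all 4 libraries, as did 70.2% of genes. With an overlap of at least 200 bp, with islands of at least 100 reads, and with the gene alone as window, the same 2 members showed the O2-specific pattern. Since 20% O2 replicate 1 has the fewest island reads of its antibody, its missing islands and that lower total cannot be told apart; for Nr4a1 and Dusp1 the island was also absent from 20% O2 replicate 2, which had 9701942 POLR2S2 island reads. The 4% O2 libraries, where both islands were listed, had 10433289 in replicate 1 and 16597869 in replicate 2. These totals are not depths, and the cause of the missing islands was not tested.

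The 2 phosphorylated forms were then set against each other as a view of pausing. At 4% O2 every member with a POLR2S5 island also had a POLR2S2 island, while 11.6% and 8.17% of genes with a POLR2S5 island lacked one in replicates 1 and 2. At 20% O2, 5 of 9 members (Fos, Egr1, Nr4a1, Dusp1 and Btg2) had POLR2S5 without POLR2S2 in replicate 1, against 19.6% of genes, and 2 of 10 (Nr4a1 and Dusp1) in replicate 2, against 13.7%. Among genes of at most 20 kb with a POLR2S5 island these shares, in the same order of libraries, came to 8.78%, 7.19%, 18.4% and 12.4%. No member had POLR2S2 without POLR2S5 in any library, against 2.67% and 1.99% of genes with a POLR2S2 island at 4% O2 and 4.49% and 1.88% at 20% O2.

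Where both forms were listed, members leaned towards serine 5. The log2 ratio of scaled POLR2S5 to POLR2S2 island reads was above the median of all genes at 10 of 10 members in both 4% O2 libraries, at 3 of 4 in 20% O2 replicate 1 and at 8 of 8 in 20% O2 replicate 2, where the share of all genes is 50% by construction. Median ratios of the listed members were 0.72, 0.83, 0.87 and 0.87 (log2), beside 0.07, 0.10, -0.04 and 0.09 over all genes. Genes of at most 20 kb had medians of 0.12, 0.21, 0.01 and 0.21.

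By gene, Nr4a1 had 1.39 and 1.74 at 4% O2, at percentiles 89 and 93.2 among genes, and no ratio at 20% O2. Fos had 1.02 and 2.01 at 4% O2 and 1.41 in 20% O2 replicate 2. Jun (0.58 to 0.79), Junb (0.88 to 1.11) and Dusp1 (0.85 and 0.87) were the members whose ratios varied least between libraries. Fosb ranged from 0.34, where its POLR2S2 island was 31.2 kb long, to 2.57, where it was 4.2 kb. Atf3 ranged from 0.18 to 1.88, the latter with a POLR2S2 island of 3.2 kb. That island lay beyond the gene, 13.13 to 16.33 kb from its first base, and counted only through the flank. Ier2 was the exception, with 0.09 and 0.26 at 4% O2 and -0.55 and 0.43 at 20% O2.

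**Figure D3:**
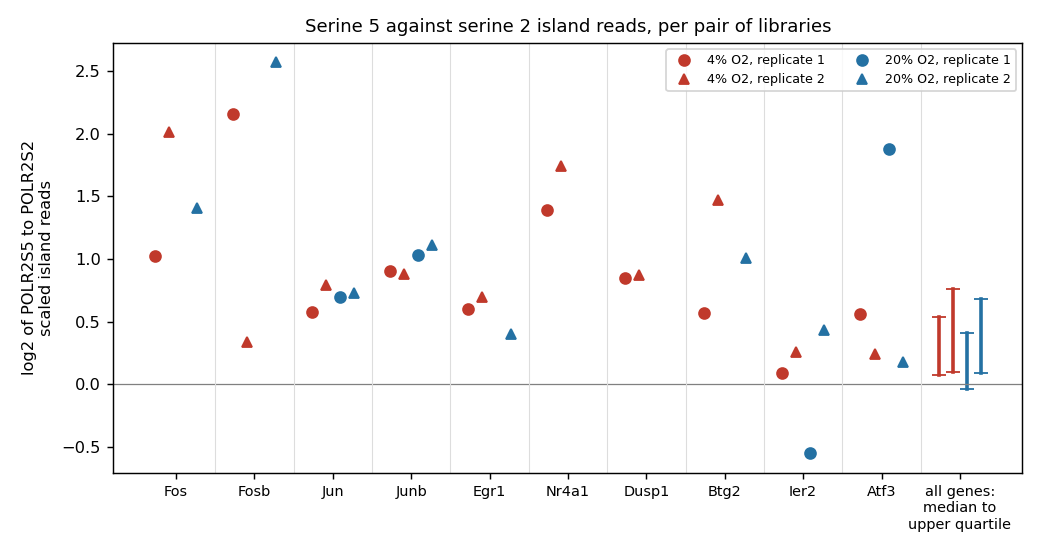
Log2 ratio of scaled POLR2S5 to POLR2S2 island reads for each member and pair of libraries (circles replicate 1, triangles replicate 2, red 4% O2, blue 20% O2), with the median to upper quartile of all genes as bars at the right. Of 32 ratios 31 are above 0, and Ier2 in 20% O2 replicate 1 is the exception; Nr4a1 and Dusp1 have no ratio at 20% O2.

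The lean was smaller once reads were divided by island length. Per kb of island, members above the median of all genes numbered 9 of 10, 5 of 10, 3 of 4 and 8 of 8. In 4% O2 replicate 2 the members' median per kb, not scaled to library totals, was -0.23, beside -0.26 over all genes.

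The ratio could be tested at the 4 members with both islands in all 8 libraries, Jun, Junb, Ier2 and Atf3, so the other 6 are outside this test. The log2 ratio was 0.98 ± 0.24 (SE, n = 4 libraries per form) for Junb, above 0 in 4 of 4 library pairs (edgeR adjusted p = 0.181). It was 0.69 ± 0.28 for Jun (edgeR adjusted p = 0.38), 0.68 ± 0.34 for Atf3 (0.472) and -0.01 ± 0.29 for Ier2 (0.998). No gene of 8925 passed in edgeR's quasi-likelihood test (0% higher and 0% lower), with 1116 at an unadjusted p under 0.05; DESeq2 called 312 higher and 162 lower. Junb passed with DESeq2 (0.96, adjusted p = 0.019) and per kb of island (0.63, edgeR adjusted p = 0.0463), and no other member passed in any alternative. The islands of Junb and Ier2 also took in neighbouring genes, so their ratios are not those of single genes. Whether the ratio differed between O2 levels was tested at the same 4 members, with changes of -0.04 ± 0.63 (Jun), -0.17 ± 0.53 (Junb), 0.34 ± 0.62 (Ier2) and -0.61 ± 0.70 (Atf3), and edgeR adjusted p = 1 for each; over 8925 genes 0% passed.

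Polymerase island reads were next compared between O2 levels, at members with an island in all 4 libraries of a form: 7 of 10 for POLR2, 9 for POLR2S5 and 4 for POLR2S2. The members left out lack an island somewhere, mostly at 20% O2, so the tested members are not a fair view of all 10. No gene passed in edgeR's quasi-likelihood test in any form (0% of 9245, 11534 and 9364 genes, with 319, 409 and 583 at an unadjusted p under 0.05), and DESeq2 called 114, 258 and 160 genes but no member. In simulated counts for these comparisons the same edgeR test recovered 0% of genes changed 4-fold. With the replicate as a block it recovered 7%, 0% and 25% of them (POLR2, POLR2S5 and POLR2S2), and that fit also called 0 genes in the data. In the same simulations the block fit called 6, 0 and 21 unchanged genes, against 0 in each form without the block. The simulated counts held no round effect, so they do not show how the block fit performs on these data.

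After TMM scaling (CPM, reads scaled to library totals over gene windows) Fos had a POLR2S5 level of 80.7 ± 62.7 at 4% O2 and 39.4 ± 15.6 at 20% O2 (SD, n = 2 each). Its log2 ratio of 1.04 ± 0.70 (SE) was the highest of the members in this form (edgeR adjusted p = 0.983), and leaving out 4% O2 replicate 2 turned it to -0.20. Btg2 had 161.8 ± 86.6 against 102.2 ± 26.4, a log2 ratio of 0.66 ± 0.55 (0.983) that was -0.11 without 4% O2 replicate 2, and Egr1 54.4 ± 16.2 against 35.4 ± 22.3, a ratio of 0.62 ± 0.60 (0.983). For each of these 3 genes the difference between levels is smaller than the larger of its SDs.

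In POLR2S5 4 of 9 members (Fos, Nr4a1, Btg2 and Ier2) were higher at 4% O2 in both rounds, against 29.5% of genes, and 1 (Jun) was lower in both, against 30.8%. In POLR2 it was 3 of 7 (Fos, Nr4a1 and Dusp1; 27.5%) and 1 (Jun; 30.5%), and in POLR2S2 1 of 4 (Atf3; 28.7%) and 1 (Jun; 33.2%). For Atf3 in POLR2S2, the 20% O2 reads of round 1 came from an island beyond the gene, in the window only through the flank. After scaling, no member's groups were free of overlap, against 14.2% to 19.1% of genes in either direction of each form.

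H3K9ac peaks were listed at all 10 members in all 4 libraries, where 60.2%, 62.9%, 61.9% and 62.8% of genes had one. Peak scores were turned into percentile ranks within each library among the 12885 genes called in all 4, because lists of different length are not on one scale. The median member stood 12.12 percentile points higher at 4% O2, or 13.41 and 11.82 within rounds 1 and 2, beside -0.03 over all genes. Leaving out 1 library moved this median to between -2.27, without 20% O2 replicate 1, and 24.04, without 20% O2 replicate 2. For a single member the SD between replicates of its rank had a median of 15.9 points. Of the members 7 ranked higher at 4% O2 in both rounds, against 26.6% of genes, and 0 ranked lower in both, against 26.6%. By the sum of all peak scores in a window the median difference was 3.06. By these summed scores Fos ranked lower at 4% O2 in both rounds, with a difference of -30.2. By its highest peak Fos was 12.3 points higher and higher in both rounds. Ier2 had a summed-score difference of -1.6, and the other members were above 0. The counts of 7 and 0 are those of the highest peak, and they depend on the score used.

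Fosb had the highest H3K9ac difference of the members, and was singled out after its values were seen. The percentile of its highest peak was 94.5 and 99.2 at 4% O2 against 32.7 and 49.3 at 20% O2, a gap of 55.9 points with no overlap between groups. Groups did not overlap in this direction at 1 of 10 members and at 13.2% of genes, and 4 of 12885 genes (0.031%), Fosb included, had a difference this high. The peak lay from 1415 to 1801 bp after the start site in 4% O2 replicate 1 and from 1423 to 3115 bp in replicate 2. A peak at 1449 to 1793 bp was the highest in 20% O2 replicate 2 as well. In 20% O2 replicate 1 a peak stood there too, at 1451 to 1775 bp with a score of 28.9, below the 33.1 of the highest peak, 778 to 436 bp before the start site. The site was thus marked in all 4 libraries. By summed scores Fosb ranked at 86.8 and 92.1 against 52.2 and 70.9, again without overlap.

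Egr1 (75 and 62.3 against 72.8 and 28.3), Btg2 (61.5 and 92.5 against 42.1 and 75.8) and Atf3 (26.9 and 73.7 against 11.8 and 53.5) were higher at 4% O2 within both rounds, but their groups overlap. Nr4a1 went in opposite directions, with 67.3 and 59.9 against 17.6 and 85.7. Junb stayed high in every library (94.0 and 80.1 against 93.1 and 78.5), and Jun was low, at 14.8 and 43.9 against 36.1 and 37.8.

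**Figure D4:**
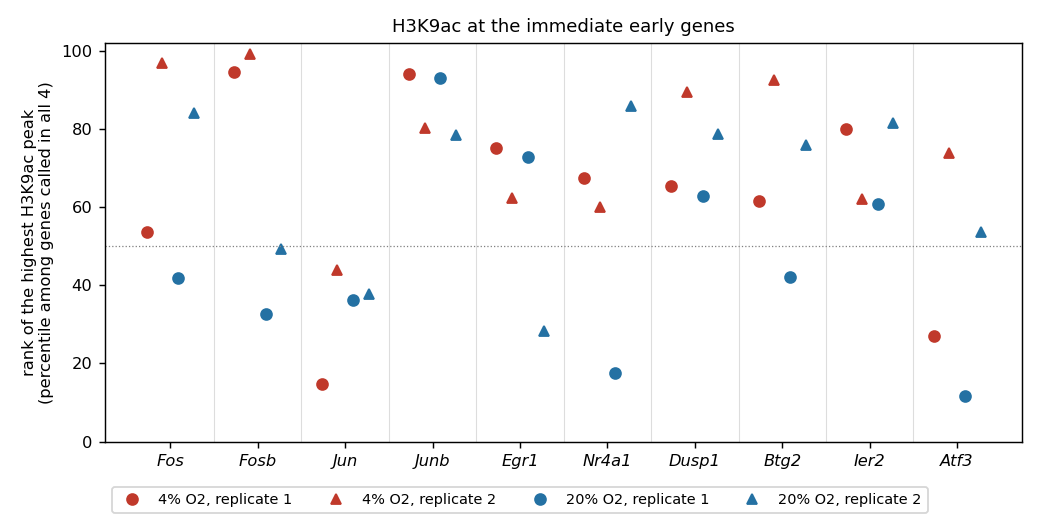
Percentile rank of the highest H3K9ac peak of each member among genes called in all 4 libraries (circles replicate 1, triangles replicate 2, red 4% O2, blue 20% O2). Fosb is the member whose red symbols (94.5 and 99.2) all lie above its blue ones (32.7 and 49.3).

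H3K9ac was interrupted around the start sites of Jun, Junb, Dusp1 and Btg2. Each gap began before the start site, and those of Jun, Junb and Btg2 ran past it. In all 4 libraries a gap of at most 600 bp between 2 peaks overlapped the 250 bp before the start, 351 to 370 bp wide at Jun, 216 to 307 bp at Junb, 155 to 191 bp at Dusp1 and 259 to 291 bp at Btg2. Such a gap in all 4 libraries was also found at 43.9% of 8961 promoters with a peak within 1 kb in each, so it is a common form of the mark. The palindromes TGACGTCA of Dusp1 and Btg2 and the TGACG core of Junb printed above lie inside their gaps in all 4 libraries. A further TGACG core of Dusp1, at -191 to -187, lies wholly inside the gap in 20% O2 replicate 2 only. How often these letters lie inside a gap over all promoters was not counted. Atf3 had a gap in 2 libraries and Fos, Fosb and Nr4a1 in 1. The RefSeq promoter entry of Nr4a1 lies 12944 bp inside the gene, and its highest H3K9ac peak stood instead near the gene's annotated first base in all 4 libraries.

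**Figure D5:**
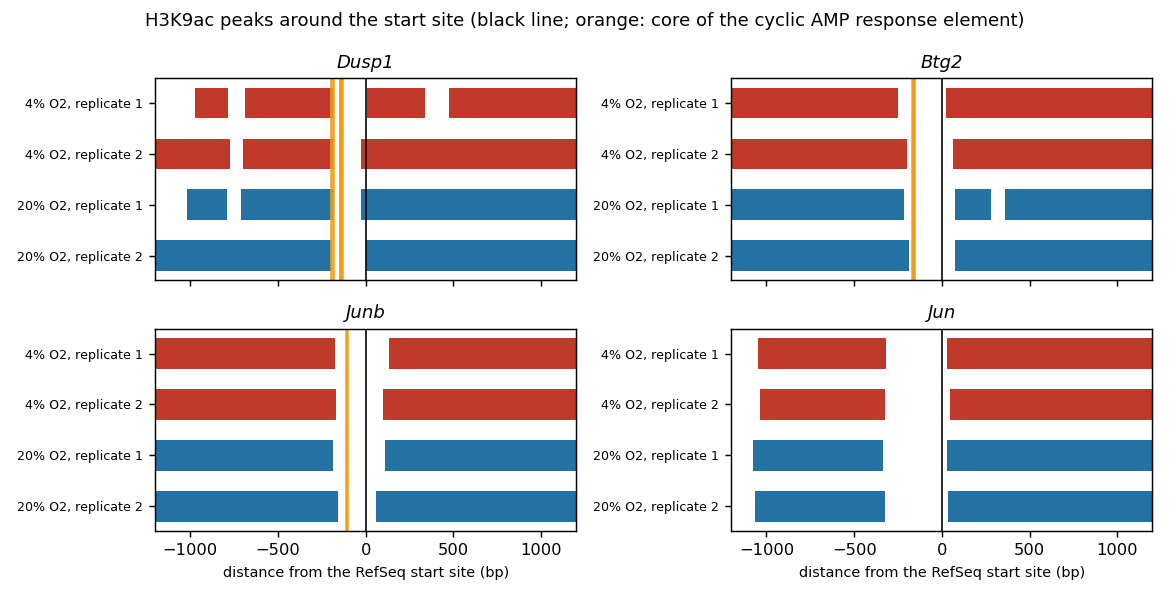
H3K9ac peaks around the start sites of Dusp1, Btg2, Junb and Jun, as distance in bp with bars clipped at the panel edges, red for 4% O2 and blue for 20% O2; the black line is the start site and orange marks the core of the cyclic AMP response element. Each row has a break that begins before the start site, 155 to 370 bp wide over these genes, at both O2 levels. At Jun, Junb and Btg2 the break runs past the start site.

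CTCF peaks were listed at 9 of 10 members in all 4 libraries, where 65.9%, 55%, 64.8% and 55.8% of genes had one; Ier2 had none. RAD21 peaks were listed at 8, 8, 5 and 9 members in the same order of libraries, against 43.9%, 49.7%, 36.9% and 52.3% of genes, and Nr4a1 had none in any library. A CTCF peak overlapped by a RAD21 peak was present in all 4 libraries at 5 members (Fosb, Jun, Dusp1, Btg2 and Atf3), against 34.5% of genes.

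Dusp1 stood high in CTCF in every library, with percentile ranks of 85.8 and 77.0 at 4% O2 and 91.0 and 80.2 at 20% O2. Its highest CTCF peak spanned 1304 to 227 bp before the start site in 4% O2 replicate 1 and 1161 to 199 bp before it in 20% O2 replicate 1, but began 90 bp before the start and ran downstream in 4% O2 replicate 2. RAD21 covered 907 bp before to 1129 bp after the start in 4% O2 replicate 1. Btg2 had its highest CTCF peak downstream, between 1119 and 1848 bp after the start in all 4 libraries, and from 1157 to 1635 bp in 4% O2 replicate 1, and RAD21 there from 1138 to 1806 bp. RAD21 ranks of Btg2 were nearly constant, at 55.5 and 58.5 against 56.0 and 55.5. Nr4a1 had the lowest CTCF ranks of the members, 0.5 to 3.4.

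Lists of related genes were set beside the members. Of 50 other immediate early genes 43 had a POLR2S2 island in at least 1 library; 28 had one in all 4, 10 in every library but 20% O2 replicate 1 (among them Egr3, Nr4a2, Nr4a3 and Klf4) and 1, the matricellular gene Ccn1, in both 4% O2 libraries alone. Over all genes with an island in at least 1 library these shares were 70.2%, 12.5% and 2.44%, so the pattern confined to 4% O2 was about as common in the list as elsewhere. Of 34 upstream regulators 33 had an island, 31 of them in all 4 libraries, and the 2 missing in 20% O2 replicate 1 were Srf and Elk1, which encode the serum response factor and its partner. No gene of either list passed an edgeR test.

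For POLR2S5 against POLR2S2, 21 of 27 tested immediate early genes outside the 10 members had a ratio above 0, with a median of 0.37 (log2), beside -0.02 over all genes, of which 48% were above 0. The highest were Arl4d at 1.51 ± 0.38 (SE, edgeR adjusted p = 0.191) and Fosl1, a Fos-family subunit, at 1.21 ± 0.51 (0.387), and the lowest Amigo3 at -0.75 ± 0.36 (0.458) and Dusp4 at -0.31 ± 0.40 (0.82). Upstream regulators had a median of -0.07, with 15 of 31 above 0. Their extremes were Crtc2, a CREB coactivator, at 0.81 ± 0.21 (0.204), Camk2b at 0.70 ± 0.23 (0.28), the kinase Rps6ka5 at -1.24 ± 0.43 (0.296) and Braf at -1.0 ± 0.29 (0.236).

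For POLR2S2 between O2 levels, the immediate early genes tested had a median of 0.06, with 16 of 28 above 0, and the regulators 0.19, with 18 of 31 above 0, beside -0.02 over all genes. Zfp36, an mRNA decay factor, had 4.23 and 2.05 in the rounds and a fitted 2.66 ± 0.86 (edgeR adjusted p = 0.713), and Fosl1 2.92 and 1.73 and 2.22 ± 0.59 (0.666). The lowest were Dusp6 at -0.66 ± 0.47 (0.861) and Trib1 at -0.60 ± 0.47 (0.869). Among regulators Rps6ka5 had 2.26 ± 0.50 (0.554), Camk2g 1.78 ± 0.35 (0.553), Crebbp -1.31 ± 0.56 (0.836) and Elk3 -0.62 ± 0.36 (0.861).

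The genes most like the members over the 12 polymerase libraries were sought by Pearson correlation with the mean log2 profile of Jun, Junb and Ier2, the 3 members with islands in all 12. Among 7299 genes they were Fth1 and Best1 (r = 0.99 each), neighbours 61 bp apart whose windows held the same reads in 12 of 12 libraries, and Mfap1b (r = 0.977). These correlations run over libraries that share 3 antibodies and 2 rounds, and are given as a description.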

How the data were processed

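The deposited lists were called with MACS2 (H3K9ac, CTCF, RAD21) or SICER (polymerase forms), per the file headers, on build mm10 after BWA and Picard, per the submitters' processing notes (tool versions: not given in the sources used here). SICER lists as the authors deposited them end in a raw count of reads per island, and the score of the deposited MACS2 lists was taken as −log10 of a p- or q-value, both judged from the values. The list deposited under each replicate 2 label had the scores of a second list placed with replicate 1 (12 of 12 cases), so it was used 1 time, for replicate 2. Lists of replicates 1 and 2 shared at most 0.97% of intervals.

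Reads of all islands overlapping a window were summed and tested with edgeR 4.0.16 (quasi-likelihood, TMM, Benjamini-Hochberg over all genes with an island in every library of the fit, threshold 0.05) and DESeq2 1.42.0 as an alternative, in R 4.3.3. The edgeR fits, with and without the replicate block, were tested on simulated counts, and the other steps were not. Exact permutation of 2 against 2 libraries cannot go below p = 0.333 and was not used. Same-round deviations correlated at 0.32, 0.39 and 0.32 across genes (POLR2, POLR2S5, POLR2S2); rounds are flow cells per the file headers. No depth and no counting interval is given. Members and lists were chosen with earlier results of these data known. Genes of the 2 lists are named by rule: the 2 highest and 2 lowest ratios of the same sign in both rounds. The H3K9ac gap, the count of genes with at least as many POLR2S2 reads and the choice of Fosb came after values were seen.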

Additional observations from a re-analysis of the deposited data

How the results depend on the processing

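Island reads are whole-island counts from 2 libraries per O2 level with no depth given, and MACS2 scores are comparable only within a list; these limit every value above. In edgeR no gene passed in the 5 polymerase tests. DESeq2 called 114 genes for POLR2, 258 for POLR2S5, 160 for POLR2S2, 474 for POLR2S5 against POLR2S2 and 11 for the change of that ratio with O2. For POLR2S5 against POLR2S2 edgeR called 607 genes per kb of island and 29 with reads prorated to the window. Leaving out 1 library gave 0 to 38 calls for POLR2 and 0 to 25 for POLR2S5, each maximum without 4% O2 replicate 1, and 0 for the other 3 tests. With the replicate block, which treats the flow cell rounds as pairs, edgeR called 0 genes in each test, Junb had 0.98 for POLR2S5 against POLR2S2 (edgeR adjusted p = 0.0593) and Ier2 0.04; the block changed no call. Fitting genes with an island in at least 1 library, with the block, was added after seeing the data and also called 0 genes. The median H3K9ac difference ran from -2.27 to 24.04 percentile points when 1 library was left out, the lowest without 20% O2 replicate 1. The cause of these shifts was not tested.

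Of 391 alternative values for 28 member results, 331 kept direction and side of the threshold, 58 changed sign and 2, both for Junb, passed the threshold. None of the values that changed sign had passed the main test. POLR2 at Junb, with a main value of 0.0 and so no direction to keep, is counted among the 331. Per kb of island, O2 ratios changed sign for POLR2 at Fos (-0.21), Nr4a1 (-0.07), Dusp1 (-0.06) and Ier2 (-0.09), for POLR2S5 at Fos (-0.07), Nr4a1 (-0.28) and Ier2 (-0.22), and for POLR2S2 at Jun (0.12) and Atf3 (-0.18). With prorated reads they did so for POLR2 at Dusp1 (-0.56), Btg2 (-0.03) and Ier2 (-0.47), for POLR2S5 at Junb (-0.1), Dusp1 (-0.03), Ier2 (-0.44) and Atf3 (0.07), and for POLR2S2 at Junb (-0.23). Without flanks POLR2 at Ier2 was -0.01. For POLR2S5 against POLR2S2, Ier2 was 0.01 without flanks, 0.37 per kb and 0.47 prorated. The change of that ratio with O2 was 0.17 for Junb prorated, -0.18 and -0.03 for Ier2 per kb and prorated, and 0.04 for Atf3 per kb.

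Leaving out 1 library gave these ranges. POLR2 ran from -0.05 to 0.82 at Fos, -2.3 to 2.94 at Nr4a1, -0.39 to 0.49 at Dusp1, -0.3 to 0.56 at Ier2 and -0.47 to 0.45 at Junb. POLR2S5 ran from -0.2 to 1.67 at Fos, -0.72 to 0.03 at Jun, -0.28 to 0.37 at Junb, -1.79 to 3.05 at Nr4a1, -0.22 to 0.42 at Dusp1, -0.11 to 1.13 at Btg2 and -0.61 to 0.22 at Atf3. POLR2S2 ran from -0.7 to 0.02 at Jun, -0.17 to 0.59 at Junb, -0.63 to 0.54 at Ier2 and -0.05 to 0.95 at Atf3. POLR2S5 against POLR2S2 ran from -0.18 to 0.32 at Ier2, and its change with O2 from -0.42 to 0.32 at Jun, -0.55 to 0.19 at Junb and -0.38 to 0.82 at Ier2.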

Other observations

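Of 7199 genes whose windows held at least as many POLR2S2 island reads as Dusp1 in both 4% O2 libraries (604 and 915), 19 had no island in either 20% O2 library (0.264%). Besides Dusp1 they include Gata2, a transcription factor of sympathetic neuroblasts, the receptor kinase gene Ptk7, the Janus kinase gene Jak3 and the antigen peptide transporter gene Tap1. Neighbours that share an island, such as Dcaf13 and Slc25a32, count more than once. For Nr4a1, with 181 and 1945 reads, it was 17 of 5809 genes (0.293%). Each set holds only genes with as many reads or more, so Dusp1 and Nr4a1 lie at the lower bound of their own sets. The shares are therefore not those of genes with like reads. These counts were made after the values of both genes were seen and carry no test.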
